A study of Homo sapiens with 4 samples.

Results

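Interferon-stimulated genes are the transcripts that cells switch on when type I, II or III interferon binds its receptor. The set described here holds 44 such genes chosen by name, and 39 of them had a named probe set among the 15870 named genes of the array. STAT2, RSAD2, BST2, CMPK2 and TRIM22 were not analysed here. The brightest probe set stood for each gene, and in practice each of the 39 had 1 probe set. The cells were MDA-MB-231, an established human breast carcinoma line of mesenchymal character. In 2 arrays the cells were labelled shDROSHA, which the design text calls a DROSHA knockdown, and in 2 they were labelled shNC, the control that the same text calls mock-transfected. Which of these names describes the control was not settled. All 4 cultures were grown in Leibovitz's L-15 medium with serum, and the labels call the replicates biological without saying whether they were separate transfections, pools or clones. The p-values therefore measure the spread between these 4 arrays.

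In interferon signalling, receptor-bound kinases switch on transcription factors, and a complex that holds STAT2 and IRF9 binds the interferon-stimulated response element in the promoters of target genes. The induced proteins bind foreign RNA, degrade it, block its translation or keep viruses from entering and leaving cells, and many tumour cell lines express some of them without added interferon. DROSHA, a ribonuclease of the nucleus, releases microRNA hairpins from their long primary transcripts, and the study set cells with lowered DROSHA against control cells across all measured transcripts. In RNA from whole cultures, fewer cells expressing a gene and less of its RNA per cell cannot be told apart.

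Values are log2 signals, so a difference of 1 is a doubling of signal, and signals of different probe sets do not rank transcripts by abundance. A gene was called, and is said to have risen or fallen, where limma gave a Benjamini-Hochberg adjusted p under 0.05 over all 18603 probe sets. That fit lets the spread follow signal level and is named the trended fit. DROSHA itself read 8.71 and 8.74 in the shDROSHA arrays, against 9.66 and 9.76 in the shNC arrays (difference -0.99, SE 0.073, adjusted p = 3.89e-06 in the trended fit and 0.0843 with 1 constant prior variance). Array medians lay between 7.21 and 7.25, and Pearson's r across probe sets was 0.9937 and 0.9945 within groups and 0.9896 to 0.992 between groups. The 8 markers of the mesenchymal state of this line had mean signals of 7.55 (SPARC) to 12.80 (ANXA1), all above the median probe set. Of these, SPARC (0.80), S100A4 (0.62) and AXL (0.33) rose and CAV1 (-0.23) and MSN (-0.22) fell, 62.5% of the list beside 6.41% of all probe sets, and their part in the results was not tested. Of the epithelial markers, EPCAM and ESR1 had 6.02 to 6.88 and GATA3 had 6.99 to 7.20. KRT8 and KRT18 were bright (signal percentiles 97.9 and 96.2), and PGR, ERBB2 and CDH1 were not analysed here. Of the leukocyte markers, PTPRC had 4.21 to 4.64 and CD3E 5.61 to 5.98. CD14 had 6.48 to 6.57, NKG7 6.96 to 7.22 and ITGAX 7.16 to 7.58. The 5 leukocyte markers with a probe set summed to 485 and 508 signal units in the shDROSHA arrays, against 438 and 454 in the shNC arrays on the linear scale. None of the 5 was called by limma, 1 (ITGAX, difference 0.31) had an unadjusted p under 0.05, and their part in the results was not tested.

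Of the 39 measured interferon-stimulated genes, 7 fell, 1 rose and 31 were not called. IFIT1, IFIT2, OASL, ISG15, IFITM1 and ISG20, all antiviral effectors, were 1.34-fold to 1.46-fold lower in the shDROSHA arrays, and SAMD9 was 1.17-fold lower. SAMD9L was 1.43-fold higher. The 8 calls are 20.5% of the members, against 6.41% of all probe sets called. Split by direction, 17.9% of the members fell, against 3.28% of all probe sets, and 2.56% rose, against 3.12%. The median difference of the members was -0.07 on the log2 scale, beside 0.001 for all probe sets, and 25 of the 39 were lower. The shDROSHA arrays lay wholly below the shNC arrays for 16 members (41.0%, against 24.4% of all probe sets) and wholly above them for 5 (12.8%, against 23.4%), together 21 members (53.8%, against 47.8% of all probe sets). Calls depend on brightness as well as on change, since the residual SD was 0.213 in the dimmest and 0.067 in the brightest of 5 equal bins of signal. In the brightest bin, 5 of 11 members (45.5%) and 15.6% of all probe sets were called. In the next bin, 2 of 10 members (20.0%) and 8.92% of all probe sets were called. The dimmest 2 bins held 8 members and 0 calls among them (in limma, at adjusted p), where 0.833% and 1.94% of all probe sets were called.

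The calls depend on how the spread is estimated. With 1 constant prior variance over all probe sets limma called 0 members, with 10 at an unadjusted p under 0.05, and 1 of all 18603 probe sets (0.00538%); the adjusted p of the 8 genes then lay between 0.167 and 0.316. With the same constant prior but without the dimmer probe sets, those under the median signal, it called 7 of 27 members (25.9%), all of them among the 8, beside 5.83% of all 9302 probe sets kept; SAMD9 was not called. That combination was chosen after seeing the data. The trended fit called 5 members (12.8%), 1 higher and 4 lower, without shNC replicate 1, where 2.88% of all probe sets were called, and again 5 when shNC replicate 2 was left out, where 4.02% were. A fit without 1 array has a single array in 1 arm, so its spread comes from the other group alone and from a prior of 20.3 degrees of freedom or more, infinite without either shDROSHA array, which assumes that the lone array varies like the others. A call kept in such a fit is therefore no sign of stability, and for these fits the size of the difference is given.

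**Figure D1:**
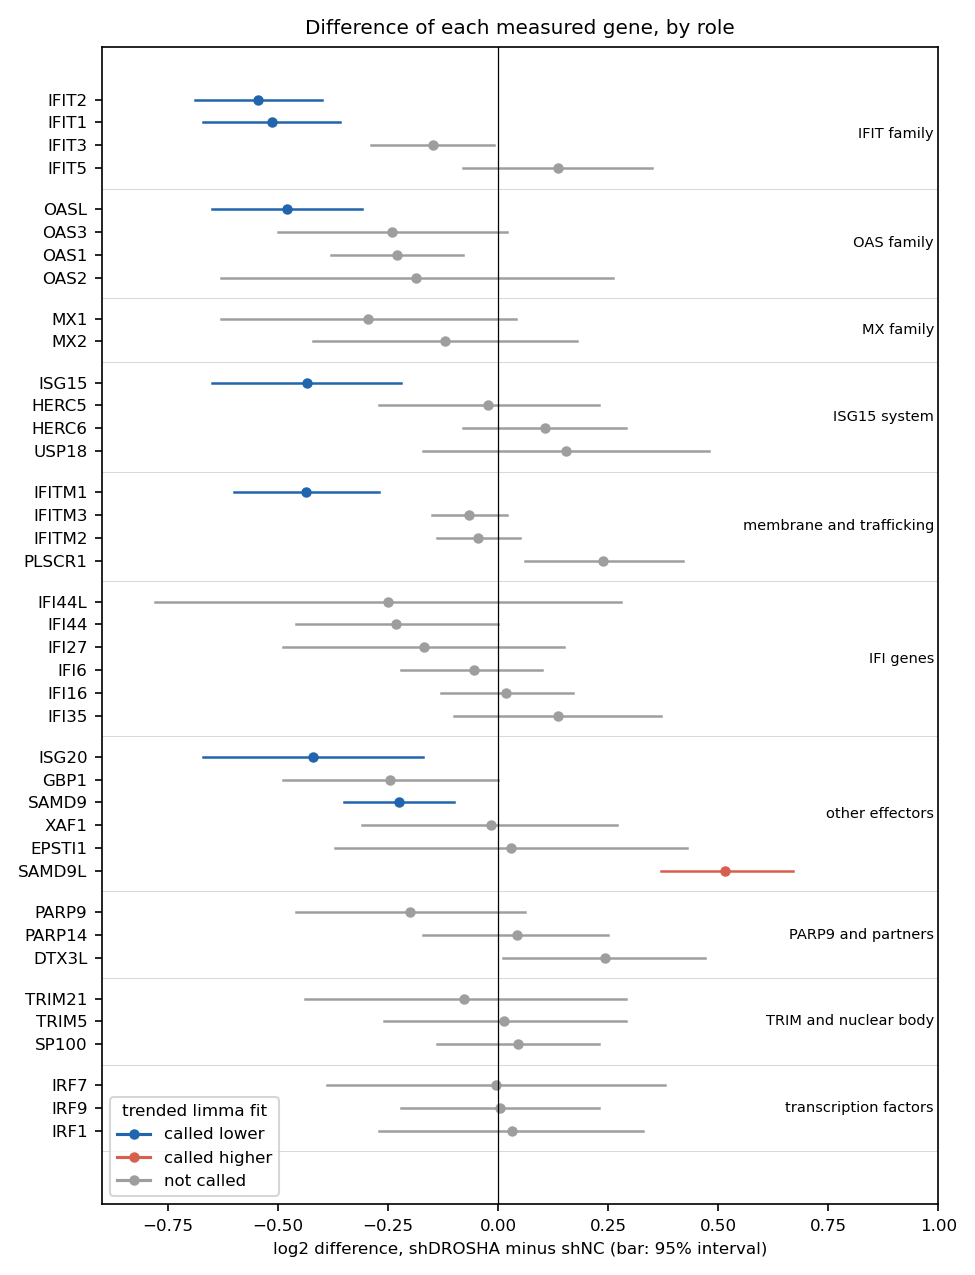
Log2 difference, shDROSHA minus shNC (x axis), of the 39 measured genes grouped by role (y axis), with bars for the 95% interval of the trended fit; blue marks genes called lower, red higher and grey not called. The called genes below 0 reach from -0.23 (SAMD9) to -0.55 (IFIT2), SAMD9L stands at 0.52, and the 3 transcription factors lie within 0.03 of 0.

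The promoters of the called genes are shown because the response element is a sequence through which interferon acts on such genes. RefSeq windows of GRCh38.p14, from 250 bases before to 50 bases after the transcript start, were found for 36 of the 44 genes and for 6 of the 8 called ones. IFIT2 and OASL are named only. Each window is written 5′ to 3′ on the strand of the gene, with capitals on every match to the core of the response element on either strand. The core is GAAA, then any 2 bases, then GAAA, and a match on the opposite strand reads TTTC, any 2 bases, TTTC, as in IFIT1.
IFIT1, chr10:89392373-89392672, plus strand: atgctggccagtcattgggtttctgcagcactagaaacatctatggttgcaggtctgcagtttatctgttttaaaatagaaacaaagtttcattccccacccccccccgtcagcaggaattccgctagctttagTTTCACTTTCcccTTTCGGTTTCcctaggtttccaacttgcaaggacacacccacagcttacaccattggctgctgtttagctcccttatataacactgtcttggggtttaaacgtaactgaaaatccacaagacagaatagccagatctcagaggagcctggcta
ISG15, chr1:1013247-1013546, plus strand: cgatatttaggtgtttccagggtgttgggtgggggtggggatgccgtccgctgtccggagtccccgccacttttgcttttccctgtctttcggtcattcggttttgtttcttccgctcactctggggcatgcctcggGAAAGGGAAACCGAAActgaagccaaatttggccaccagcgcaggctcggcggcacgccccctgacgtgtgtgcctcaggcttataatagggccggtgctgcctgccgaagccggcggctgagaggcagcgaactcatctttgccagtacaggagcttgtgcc
ISG20, chr15:88638766-88639065, plus strand: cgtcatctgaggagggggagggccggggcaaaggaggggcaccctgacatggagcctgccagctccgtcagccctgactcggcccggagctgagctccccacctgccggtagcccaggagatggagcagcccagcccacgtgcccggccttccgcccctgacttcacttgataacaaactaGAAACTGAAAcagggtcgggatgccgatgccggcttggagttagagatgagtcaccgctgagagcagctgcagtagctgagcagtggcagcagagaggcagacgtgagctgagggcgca
IFITM1, chr11:313790-314089, plus strand: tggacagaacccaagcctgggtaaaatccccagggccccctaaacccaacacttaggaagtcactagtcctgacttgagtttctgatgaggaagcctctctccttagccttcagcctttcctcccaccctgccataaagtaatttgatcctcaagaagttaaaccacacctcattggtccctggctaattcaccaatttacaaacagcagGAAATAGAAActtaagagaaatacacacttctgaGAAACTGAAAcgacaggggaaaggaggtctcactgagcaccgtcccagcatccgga
SAMD9, chr7:93117930-93118229, minus strand: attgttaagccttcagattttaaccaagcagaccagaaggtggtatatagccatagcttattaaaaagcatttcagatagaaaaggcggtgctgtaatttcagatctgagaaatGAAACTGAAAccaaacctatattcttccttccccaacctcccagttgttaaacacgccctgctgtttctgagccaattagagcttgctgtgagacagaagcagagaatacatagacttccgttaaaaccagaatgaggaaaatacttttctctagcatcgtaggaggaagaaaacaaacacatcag
SAMD9L, chr7:93148336-93148635, minus strand: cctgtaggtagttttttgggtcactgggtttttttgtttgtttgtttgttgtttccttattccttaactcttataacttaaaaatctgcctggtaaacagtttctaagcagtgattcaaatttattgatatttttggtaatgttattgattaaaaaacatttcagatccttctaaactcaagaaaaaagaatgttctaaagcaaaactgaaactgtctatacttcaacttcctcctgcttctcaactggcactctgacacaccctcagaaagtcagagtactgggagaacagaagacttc

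The 5 genes that fell and have a window all hold the core, and SAMD9L, the gene that rose, does not. The matches begin 116 and 103 bases before the start in IFIT1, 113 and 107 in ISG15, 69 in ISG20, 40 and 6 in IFITM1 and 136 in SAMD9, and the ISG15 pair overlap each other. Across the set, 25 of the 36 genes with a window (69.4%) hold the core, against 4.38% of the 27305 genes in the RefSeq table. Among measured members, the 23 that hold it had a median log2 difference of -0.17, and 17 of them were lower, 5 fell and 0 rose in the trended limma fit. The 9 that lack it had a median of 0.03, and 2 of them were lower, 0 fell and 1 rose. Outside the set, the 474 measured non-members holding it had a median of 0.002 with 20 that fell and 14 that rose, and the 12299 without it had a median of -0.003, with 4.22% and 3.61% called lower. The gamma-activated site TTCNNNGAA, the element of interferon gamma signalling, reads the same on both strands and was found in 11 of the 36 genes with a window (30.6%), against 9.38% of all genes. A gamma-activated site overlaps a match to the core in BST2, EPSTI1, IFI27, IFITM1 and MX1, so the counts of the motifs are not independent. No such overlap was found in IFI35, IRF1, IRF9, OAS1, PARP14 and PLSCR1. Measured members with that site had a median of 0.02 (10 genes) and those without it -0.07 (22 genes). The match is strict, and windows counted as lacking the core can hold near forms. The SAMD9L window holds AAAACTGAAA, which differs from the core in its first base only. Windows of OAS1, IFI16 and XAF1 hold GAAACGAAA, with 1 base instead of 2 between the repeats. Near forms were not counted in any group, so the splits apply to the exact core alone. A letter match is not a binding site, and these splits were not tested.

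The IFIT proteins bind foreign RNA and hold back its translation. IFIT2 had signals of 9.26 and 9.22 in the shDROSHA arrays, against 9.82 and 9.76 in the shNC arrays. IFIT1, which recognises RNA whose cap lacks ribose methylation, had 9.60 and 9.78 against 10.15 and 10.25 in the shNC arrays. The groups of both genes lie apart by more than the gap between replicates, and the log2 differences were -0.55 (SE 0.067, adjusted p = 0.000284) and -0.51 (SE 0.071, adjusted p = 0.000679). With single arrays left out the difference lay between -0.58 and -0.52 for IFIT2 and between -0.60 and -0.42 for IFIT1. IFIT3, a partner that stabilises IFIT1 on RNA, had 10.14 and 10.28 against 10.30 and 10.41 in the shNC arrays, a difference of -0.15 (95% interval -0.29 to -0.01) that was not called (adjusted p = 0.221). IFIT5 had 8.02 and 8.17 against 7.94 and 7.98, a difference of 0.14 (adjusted p = 0.523). The 4 genes lie close together on chromosome 10, where IFIT2 precedes IFIT3 and IFIT1 precedes IFIT5 among protein-coding genes in RefSeq, so a gene that fell has a neighbour that was not called in each pair. Whether the differences within the pairs differ from each other was not tested.

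**Figure D2:**
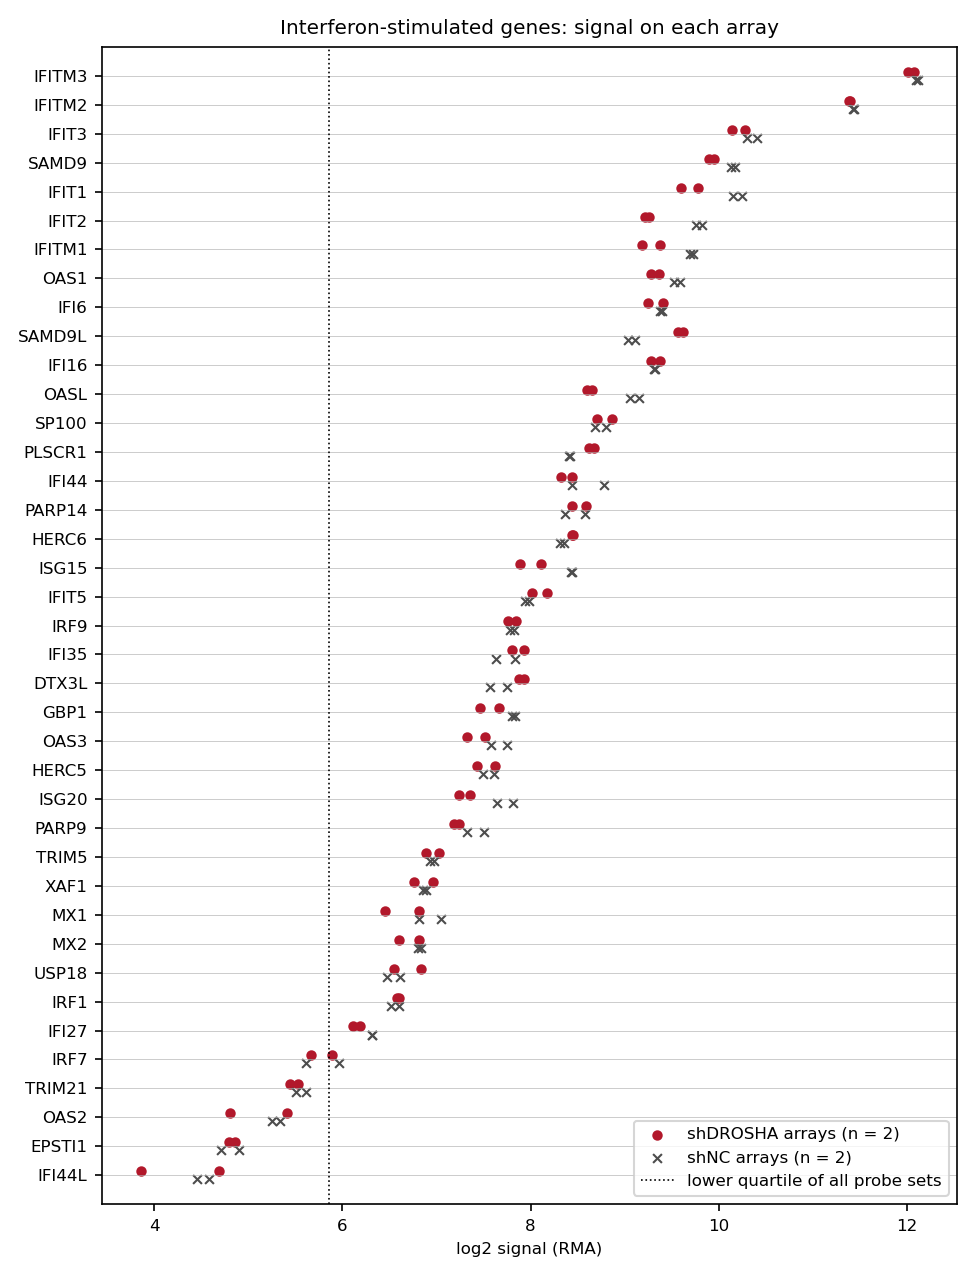
Log2 RMA signal (x axis) of the 39 measured genes (y axis, ordered by mean signal), with red dots for the 2 shDROSHA arrays, grey crosses for the 2 shNC arrays and a dotted line at the lower quartile of all probe sets (5.861). IFIT1, IFIT2, IFITM1, OASL and ISG15 show red dots left of both crosses, SAMD9L shows them to the right, and 5 genes lie below the quartile.

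The oligoadenylate synthetases sense double-stranded RNA and make the messenger that activates RNase L. All 4 family members were lower, and 1 of them fell. OASL, which has lost the synthetase activity and enhances RIG-I signalling, had 8.65 and 8.60 in the shDROSHA arrays, against 9.15 and 9.06 in the shNC arrays. Its log2 difference was -0.48 (SE 0.079, adjusted p = 0.00249) and lay between -0.52 and -0.44 when single arrays were left out. OAS1 had 9.37 and 9.28 against 9.59 and 9.52 in the shNC arrays. That difference of -0.23 (95% interval -0.38 to -0.08) just missed the threshold at an adjusted p of 0.0689. It passed when dim probe sets, those below the median signal, were dropped (0.0433). With single arrays left out the OAS1 difference lay between -0.276 and -0.185. OAS3 had 7.33 and 7.52 against 7.75 and 7.58, a difference of -0.24 (adjusted p = 0.293). OAS2 was dim, with 5.41 and 4.81 against 5.25 and 5.34, and its difference of -0.19 had an interval of -0.63 to 0.26. OAS1, OAS3 and OAS2 follow one another on chromosome 12.

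MX1 and MX2 are dynamin-like GTPases that trap viral nucleocapsids. MX1 had 6.82 and 6.45 in the shDROSHA arrays, against 7.05 and 6.81 in the shNC arrays, so the groups touch, and the difference of -0.30 (interval -0.63 to 0.04) was not called. MX2 had 6.60 and 6.81 against 6.84 and 6.80, with a difference of -0.12 (interval -0.42 to 0.18). Both probe sets lie below the median signal of 7.217, where the spread is wide.

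The ISG15 system attaches a ubiquitin-like protein to newly made proteins. ISG15, the modifier itself, had 8.11 and 7.89 in the shDROSHA arrays, against 8.43 and 8.44 in the shNC arrays, a log2 difference of -0.43 (SE 0.1, adjusted p = 0.0187). Its call was lost without shDROSHA replicate 2 (difference -0.32, adjusted p = 0.0692), without shNC replicate 1 (-0.44, 0.0929) and on leaving out shNC replicate 2 (-0.43, 0.0799). The genes that act on ISG15 were not called with it. HERC5, the main human ligase of ISG15, had 7.43 and 7.62 against 7.49 and 7.61 in the shNC arrays. HERC6, its relative and chromosomal neighbour, had 8.44 and 8.45 against 8.31 and 8.36, a difference of 0.11 (adjusted p = 0.574). USP18, which removes ISG15 and also dampens the type I receptor, had 6.84 and 6.55 against 6.47 and 6.61, a difference of 0.16 with an interval of -0.17 to 0.48.

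The IFITM proteins sit in membranes and hinder viral fusion, IFITM1 mostly at the cell surface and IFITM2 and IFITM3 in endosomes. IFITM1 had 9.38 and 9.18 in the shDROSHA arrays, against 9.73 and 9.70 in the shNC arrays. It fell by 0.44 on the log2 scale (SE 0.076, adjusted p = 0.00344), and by 0.34 to 0.54 with any 1 array left out. IFITM2 had 11.40 and 11.38 against 11.44 and 11.43, and IFITM3 had 12.08 and 12.01 against 12.12 and 12.10. Their intervals, -0.14 to 0.05 and -0.15 to 0.02, do not reach the -0.44 of IFITM1, and whether the 3 genes differ from each other in this was not tested. IFITM3, IFITM2 and IFIT3 were the brightest members. IFITM1 lies between the other pair on chromosome 11, and the 3 genes are close paralogs whose probes may share transcripts. PLSCR1, a phospholipid scramblase that restricts viral entry, was higher without being called, with 8.68 and 8.62 in the shDROSHA arrays, against 8.42 and 8.41 in the shNC arrays (difference 0.24, interval 0.06 to 0.42, adjusted p = 0.124).

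SAMD9 and SAMD9L, neighbouring paralogs on chromosome 7 that restrict poxviruses and cell growth, moved in opposite directions. SAMD9L had 9.57 and 9.62 in the shDROSHA arrays, against 9.11 and 9.04 in the shNC arrays. SAMD9 had 9.95 and 9.90 against 10.17 and 10.13 in the shNC arrays. In each gene the groups lie further apart than the replicates do. SAMD9L rose by 0.52 (SE 0.070, interval 0.37 to 0.67, adjusted p = 0.00059), and by 0.48 to 0.55 with any 1 array left out. SAMD9 fell by 0.23 (SE 0.059, interval -0.35 to -0.10, adjusted p = 0.0378). The SAMD9 call was lost without shDROSHA replicate 2 (adjusted p = 0.109), without shNC replicate 1 (0.23), on leaving out shNC replicate 2 (0.106) and with each array centred on its median (0.0804), with differences of -0.20, -0.21, -0.24 and -0.19. SAMD9L was the only one of the 39 members called higher in the trended fit.

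ISG20, an exonuclease of single-stranded RNA, had 7.24 and 7.36 in the shDROSHA arrays, against 7.81 and 7.64 in the shNC arrays. It fell by 0.42 (SE 0.116, adjusted p = 0.046), near the threshold. That call was lost without shDROSHA replicate 1 (-0.36, adjusted p = 0.0745), without shNC replicate 1 (-0.34, 0.351), without shNC replicate 2 (-0.50, 0.0762), with each array centred on its median (-0.39, 0.0632) and with the arrays quantile-normalized again (-0.39, 0.0658). GBP1, a guanylate-binding GTPase that attacks the membranes of intracellular pathogens, had 7.46 and 7.67 against 7.83 and 7.80 in the shNC arrays (difference -0.25, adjusted p = 0.249). XAF1, an antagonist of the apoptosis inhibitor XIAP, differed by -0.02 (interval -0.31 to 0.27), and EPSTI1 was among the dimmest members, at 4.80 and 4.86 against 4.71 and 4.90 in the shNC arrays.

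None of the 6 IFI genes was called in the trended limma fit, although IFI44 had an unadjusted p of 0.0492. IFI44 had 8.44 and 8.32 in the shDROSHA arrays, against 8.44 and 8.78 in the shNC arrays, a difference of -0.23 that was -0.07 without shNC replicate 2. Its neighbour and paralog IFI44L was the dimmest member, at 4.69 and 3.86 against 4.46 and 4.58, and only shDROSHA replicate 2 stood low. IFI27, a mitochondrial protein, had 6.19 and 6.11 against 6.32 and 6.31 in the shNC arrays (difference -0.17, adjusted p = 0.612). IFI6, which protects cells from apoptosis, differed by -0.06 (interval -0.22 to 0.10), IFI16, a nuclear DNA sensor, by 0.02 (-0.13 to 0.17) and IFI35 by 0.14 (-0.10 to 0.37).

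PARP9 and DTX3L form a complex that ADP-ribosylates and ubiquitinates histones and viral proteins, and their genes are neighbours on chromosome 3. PARP9 had 7.19 and 7.24 in the shDROSHA arrays, against 7.32 and 7.51 in the shNC arrays (difference -0.20, adjusted p = 0.409). DTX3L had 7.93 and 7.88 against 7.57 and 7.75 (difference 0.24, adjusted p = 0.231). The partners thus lay on opposite sides of 0 with groups that did not overlap, and neither was called. PARP14, another macrodomain ADP-ribosyltransferase, differed by 0.04 (interval -0.17 to 0.25).

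TRIM5, which recognises retroviral capsids, had 7.03 and 6.89 in the shDROSHA arrays, against 6.97 and 6.93 in the shNC arrays. TRIM21, a cytosolic antibody receptor, was dim at 5.44 and 5.53 against 5.61 and 5.51. SP100, a scaffold of nuclear bodies, had 8.87 and 8.71 against 8.69 and 8.80. The groups of all 3 overlap, and their differences were 0.01, -0.08 and 0.04.

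The 3 measured transcription factors among the members differed by 0.03 or less between the groups' means. IRF9, the DNA-binding partner of STAT2, had 7.85 and 7.76 in the shDROSHA arrays, against 7.82 and 7.78 in the shNC arrays. IRF1 had 6.60 and 6.58 against 6.60 and 6.52, and IRF7, which amplifies interferon transcription, had 5.67 and 5.89 against 5.96 and 5.61. The intervals of their differences ran from -0.22 to 0.23, -0.27 to 0.33 and -0.39 to 0.38, so changes of the size seen in IFIT1 or OASL lie outside all 3.

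**Figure D3:**
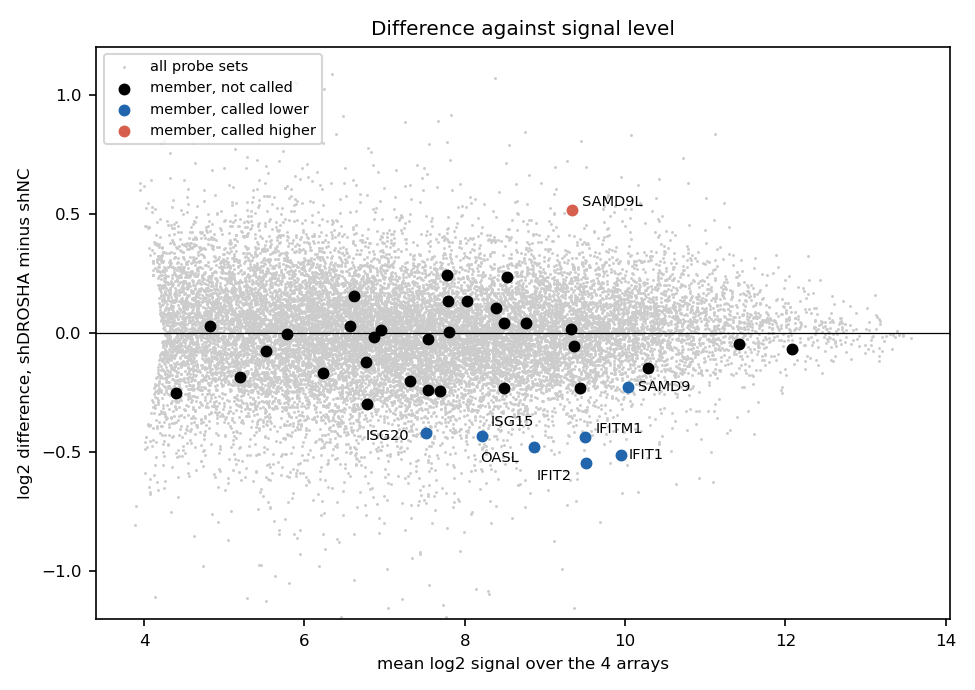
Log2 difference, shDROSHA minus shNC (y axis), against the mean log2 signal over the 4 arrays (x axis) for all 18603 probe sets in grey, 18 of which lie outside the axis, and for the 39 members in black (not called), blue (called lower) and red (called higher). The called members all have mean signals between 7.51 and 10.04.

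The parts of the pathway upstream of these genes were read from a list of 45 ligands, receptors, kinases, factors and inhibitors, of which 31 had a probe set. IFNB1 was not analysed here. In this list 2 rose, 1 fell and 28 were not called, and the median difference was -0.003. IFNAR2, the high-affinity chain of the type I interferon receptor, fell, with 9.59 and 9.51 in the shDROSHA arrays, against 9.87 and 9.76 in the shNC arrays (difference -0.26, adjusted p = 0.0332). Its partner chain IFNAR1 had 7.63 and 7.74 against 7.41 and 7.46 (difference 0.25, adjusted p = 0.234). The kinases JAK1 and TYK2 differed by -0.23 (adjusted p = 0.0829) and -0.20 (0.242). NMI, a partner of IFI35, rose, with 8.43 and 8.40 against 7.58 and 8.12 in the shNC arrays (difference 0.56, adjusted p = 0.0262), and PTPN2, a phosphatase that inactivates JAK1, rose by 0.29 (adjusted p = 0.0498). None of the 3 calls was made without shNC replicate 1, where IFNAR2 differed by -0.21 (adjusted p = 0.282), NMI by 0.29 (0.271) and PTPN2 by 0.26 (0.261). The IFNAR2 call was also lost without shDROSHA replicate 2 (-0.22, adjusted p = 0.0804) and with each array centred on its median (-0.23, 0.0633), and the PTPN2 call without shDROSHA replicate 1 (0.21, 0.178) and without shNC replicate 2 (0.33, 0.0976). The ligand probe sets of IFNA2, IFNA6, IFNA13, IFNA14, IFNA21 and IFNW1 had signals of 3.83 to 6.33, and none was called by limma (unadjusted p of 0.171 to 0.899). The type III ligands IFNL1, IFNL2 and IFNL3 had signals of 5.54 to 7.20, and none of them was called.

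Of 31 nucleic acid sensors and their adaptors 25 were measured, 2 fell and 0 rose in the trended limma fit, with a median of 0.05. The pair were RIGI, the cytosolic sensor of viral RNA ends, with 8.98 and 8.84 in the shDROSHA arrays, against 9.65 and 9.62 in the shNC arrays, and DDX60, a helicase that assists it, with 7.37 and 7.60 against 8.46 and 8.34. Their differences, -0.72 and -0.92, were larger in size than that of any member, and with single arrays left out they lay between -0.79 and -0.65 for RIGI and between -1.03 and -0.80 for DDX60. Both genes are themselves interferon-induced, whereas the sensors IFIH1 (0.06) and EIF2AK2 (0.05), which are induced as well, were not called. DDX60L, in the same list, was higher without being called, with 7.44 and 7.43 against 6.94 and 7.08 in the shNC arrays (difference 0.42, adjusted p = 0.0571). Without probe sets below the median signal, 3 of 18 sensors were called, 1 higher and 2 lower (16.7%, beside 14.2% of all probe sets kept).

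A further list of 58 interferon-induced genes had 46 measured, with 3 that rose, 2 that fell and a median of 0.01. GBP2, a relative of GBP1, fell by 0.63 (8.30 and 8.45 in the shDROSHA arrays, against 9.13 and 8.89 in the shNC arrays, adjusted p = 0.00137), and SLFN5 fell by 0.42 (adjusted p = 0.0388). PSMB9, a subunit of the immunoproteasome, rose by 0.53 (8.20 and 8.26 against 7.78 and 7.61 in the shNC arrays, adjusted p = 0.00648), NT5C3A, a nucleotidase, by 0.45 (adjusted p = 0.00298) and PNPT1, a mitochondrial exoribonuclease, by 0.31 (adjusted p = 0.00374). The SLFN5 call was lost without shDROSHA replicate 2 (-0.29, adjusted p = 0.172), without shNC replicate 1 (-0.44, 0.134), without shNC replicate 2 (-0.40, 0.16), with each array centred on its median (-0.39, 0.0559) and with quantile normalization repeated (-0.39, 0.0555), and the PSMB9 call without shNC replicate 2 (0.45, 0.0582). Without shNC replicate 2 this list had 3 calls. The lists were called at 9.68%, 8% and 10.9% of their measured genes in the order given, beside 20.5% for the 39 members and 6.41% for all probe sets, and the differences between lists were not tested.

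**Figure D4:**
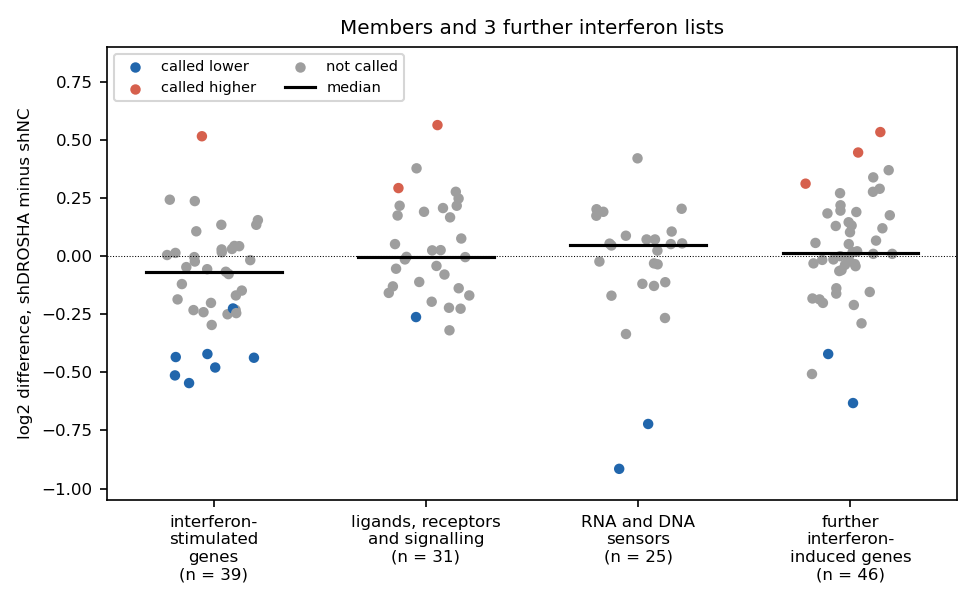
Log2 difference, shDROSHA minus shNC (y axis), of each measured gene in the 39 interferon-stimulated genes and in the 3 further lists (x axis), with a black line at each list's median and colours for genes called lower, higher or not called. The medians lie at -0.07, -0.003, 0.05 and 0.01.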

How the data were processed

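Total RNA of 4 MDA-MB-231 cultures was measured on whole-transcript Affymetrix arrays. The deposited values are log2 signals made by the authors with RMA, per the submitters' processing notes, with a software version and build that were not given in the sources used here. RMA makes the arrays' distributions nearly equal, so a shift shared by most transcripts would not show, and differences of dim probe sets may be understated. Probe sets were named through the platform annotation and Entrez identifiers: 15886 of 18603 had 1 symbol, 0 had several and 2717 had none. Groups and replicate numbers come from the sample titles.

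shDROSHA was set against shNC with limma 3.58.1 in R 4.3.3 (lmFit, eBayes with trend), adjusted over all probe sets by Benjamini-Hochberg at 0.05, with 2 residual and 11.9 prior degrees of freedom. The trend was chosen because the spread between replicates is wider for dim probe sets. Intervals are 95% and unadjusted. An exact permutation test of 2 against 2 arrays cannot go below a two-sided p of 0.333, and the number of arrays limits the precision. The members, lists and prior were chosen with earlier results of these data known. Members with full values include those called, those differing by 0.3 or more without overlap, paralog or neighbour pairs, and the brightest and dimmest 3. Up to 6 called genes of each further list were named, of which PTPN2, SLFN5, NT5C3A and PNPT1 are given as differences. Alternatives covered the prior, filters on dim probe sets, normalization, threshold, fold minimum, probe set choice, the replicate number and leaving out each array.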

Additional observations from a re-analysis of the deposited data

How the results depend on the processing

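IFIT1, IFIT2, OASL, IFITM1 and SAMD9L stayed called in the trended fit under every normalization, filter and block run, and lost the call only with the constant prior over all probe sets and with the 1.5-fold minimum, which no member reached. With 1 constant prior variance limma called 0 members (10 at unadjusted p under 0.05), 0 of each further list (7, 4 and 9 at unadjusted p under 0.05 for signalling, sensors and further induced genes) and 1 probe set in all, and DROSHA at -0.988 had an adjusted p of 0.0843. Together with a threshold of 0.10 it called 0 members, 0 of each further list and 27 probe sets in all. Together with leaving out the probe sets below the median signal it called 7 members, all called in the trended fit too, and 0, 3 and 3 of the further lists, with 542 in all. These 2 combinations were chosen after seeing the data. In the trended fit a threshold of 0.10 gave 1824 probe sets, 5 signalling genes, 4 sensors and 9 further induced genes, and a 1.5-fold minimum gave 245, with 0 members, 0 signalling genes and 1 further induced gene, both by construction (14 members and 10 signalling genes had an unadjusted p under 0.05 in limma). Without probe sets below the median signal 8 of 28 further induced genes were called (28.6%), beside 14.2% of all 9302 probe sets kept. When single arrays were left out, with the spread taken from the other group, counts ranged from 535 to 1949 probe sets, 5 to 8 members, 0 to 4 signalling genes and 3 to 7 further induced genes. Centring each array on its median turned the split of all calls to 62.5% higher, against 48.7% as deposited, moved the median of all probe sets from 0.001 to 0.034 and left 6 members called, 1 higher and 5 lower. It reversed IRF7 (0.029), HERC5 (0.01) and XAF1 (0.016), and further quantile normalization reversed HERC5 (0.015). None of these 3 was called in limma. Other members that were not called changed sign when 1 array was left out: OAS2 (-0.485 to 0.114), IFI6 (-0.137 to 0.024), IFI16 (-0.031 to 0.066), IFI44L (-0.665 to 0.165), IRF1 (-0.008 to 0.071), IRF7 (-0.177 to 0.17), IRF9 (-0.041 to 0.05), HERC5 (-0.119 to 0.073), XAF1 (-0.117 to 0.083), EPSTI1 (-0.064 to 0.121), PARP14 (-0.063 to 0.149), TRIM5 (-0.055 to 0.083) and SP100 (-0.035 to 0.124). The members' median kept its sign, between -0.096 and -0.034. With the replicate number as a block 8 members were called, the same 8 genes, and 1391 probe sets in all; the deviations of same-numbered arrays correlated at -0.022, so the numbers were not taken to pair the samples. For the other shifts the cause was not tested. OAS2, IFI44L, IRF7, EPSTI1 and TRIM21 lay below the lower quartile of signal, and their intervals are wide.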
